A study of Homo sapiens with 62 samples.

Results

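Secreted and cell-surface genes that mark the classical tumour state, 10 in number, were read out in SLAM-seq libraries of 2 human pancreatic ductal adenocarcinoma (PDAC) lines. The 10 genes, of 29794 in each count table, were taken by name: the trefoil peptides TFF1, TFF2 and TFF3, and AGR2, CEACAM5, CEACAM6, LGALS4, TSPAN8, REG4 and CTSE. SLAM-seq adds 4-thiouridine (4sU) to living cells, and RNA made during the 2 h of labelling is then read as T>C conversions. For every gene there were thus 2 counts per library, reads that carried a T>C conversion (newly made RNA) and all reads (total RNA), and their ratio, called the labelled share here. Levels are given as CPM, that is, counts scaled by the library's total of the same kind of read. That total covers genes that passed a filter on low counts, and was adjusted between the libraries of a line by TMM (trimmed mean of M values). CPM values are not compared between genes.

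PDAC is commonly divided into a classical state, with glandular and gut-like gene expression, and a basal-like state, with squamous features. Classical tumour cells make mucus-associated proteins such as the trefoil peptides, and carry adhesion proteins of the CEACAM family on their surface. Several of these proteins leave the cell or sit in its outer membrane, and some are used as tumour markers.

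AsPC-1 served as the classical model and T3M-4 as the basal-like model. In all 62 libraries, controls included, the cells had the genotype given as FKBP12-F36V-FLAG-KLF5_sgEndogenousKLF5, that is, the transcription factor KLF5 was expressed from a lentiviral cDNA with a degradable tag while the endogenous gene was targeted by Cas9. The labels do not say whether each line is 1 clone or a pool. dTAG denotes the degrader dTAGv-1, which removes tagged KLF5, and NEG denotes its inactive form dTAGv-1-NEG. CB-6644 inhibits the ATPases RUVBL1 and RUVBL2, NVP-2 inhibits the transcription kinase CDK9, and DMSO is the solvent. In AsPC-1, 4 h of treatment gave 10 libraries each for dTAG and NEG, 5 each for DMSO and CB-6644, and 4 for NVP-2, and 12 h gave 4 each for CB-6644 and DMSO. T3M-4 had 4 libraries for every one of these 5 treatments, all taken at 4 h. Library 1.2 below means experiment 1, second library, as in the replicate numbers of the labels. The labels do not say whether libraries of 1 experiment came from separate cultures, so p-values measure the spread between these libraries, which may be technical.

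Libraries of AsPC-1 held 2240998 to 18311982 T>C reads and those of T3M-4 3714015 to 27982537, while all reads numbered 82676553 to 200298262 and 111132257 to 244524608. All-read counts for dTAG library 3.1 of AsPC-1 were left out, which leaves 9 dTAG libraries for total RNA and labelled share. In the 4 h controls the classical marker HNF4A was at 9.755 to 34.29 CPM in AsPC-1 and near 0 in T3M-4 (0.115 to 0.599 CPM), while FOXA2 was near 0 in AsPC-1 and at 21.44 to 31.04 CPM in T3M-4. Basal-like markers summed to 13.8 to 57.2 CPM in AsPC-1, nearly all S100A2, against 2600.2 to 4747.9 CPM in T3M-4, where all 6 were present. Of the fibroblast markers 1 of 5, and of the leukocyte markers 1 of 4, reached 1 CPM in each line. KLF5 T>C reads themselves rose after dTAG, by 0.60 on the log2 scale in AsPC-1 (adjusted p = 0.0028) and by 0.90 in T3M-4 (adjusted p = 0.026). These reads lie in the 3′ untranslated region of the gene, and so they are no check of the loss of the tagged protein.

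The 10 genes lie on 5 chromosomes (GRCh38, GENCODE v44). The trefoil genes form a cluster on chromosome 21, with TFF3 at chr21:42311667-42315409, TFF2 at chr21:42346357-42350997 and TFF1 at chr21:42362282-42366535, all on the minus strand. CEACAM5 (chr19:41708585-41730433) and CEACAM6 (chr19:41750977-41772211) are neighbours on the plus strand with 20.5 kb between them, and LGALS4 (chr19:38801671-38812945, minus strand) is on the same chromosome. AGR2 is at chr7:16791811-16833433, TSPAN8 at chr12:71125085-71441898, REG4 at chr1:119794017-119811580 and CTSE at chr1:206008535-206023909. Reads were counted over 3′ untranslated exons only. CEACAM5 and CEACAM6 are close relatives, and how reads that match both were divided was not tested. TSPAN8 counts were multiples of 3 in 121 of 122 values above 0, so its counts hold fewer independent reads than their size implies.

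KLF5 belongs to a family of factors that bind CACCC and GC-rich boxes, so these letters were looked for before the starts of the members, and the 4 promoters that held CACCC are shown. Each line gives bases 130 to 42 before a RefSeq start (GRCh38.p14), 5′ to 3′ on the gene's own strand, and capitals mark CACCC or its reverse complement GGGTG.
CEACAM5, chr19:41708496-41708584, plus strand: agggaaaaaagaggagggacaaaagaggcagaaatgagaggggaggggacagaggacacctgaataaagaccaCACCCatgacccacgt
CEACAM6, chr19:41755400-41755488, plus strand: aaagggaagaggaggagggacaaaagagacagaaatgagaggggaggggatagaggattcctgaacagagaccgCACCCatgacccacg
LGALS4, chr19:38812987-38813075, minus strand: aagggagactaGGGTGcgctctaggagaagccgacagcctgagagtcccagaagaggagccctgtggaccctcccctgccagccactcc
AGR2, chr7:16805041-16805129, minus strand: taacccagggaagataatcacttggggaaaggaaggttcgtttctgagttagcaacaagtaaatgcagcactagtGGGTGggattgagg
CEACAM5 and CEACAM6 carried CACCC at nearly the same place, 57 and 56 bases before the start, and 84 of 100 bases were the same when both were lined up there. Of 35114 RefSeq promoters searched on both strands, 54.7% held CACCC in the 250 bases before the start, so the match alone is common. The box was 119 bases before the start in LGALS4 and 55 in AGR2, and none was found in TSPAN8, REG4 or CTSE. The GC box GGGCGG, searched on both strands, lay 211 bases before the CEACAM6 start and 151 before that of TSPAN8, and 42.6% of promoters held it. Promoters were found for 7 of the 10 genes, and TFF1, TFF2 and TFF3 were not among them.

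Total RNA of the 10 genes differed widely between the lines. In a comparison of the 15 AsPC-1 and 8 T3M-4 control libraries (DMSO and NEG, 4 h), 8 of the 10 genes were higher in AsPC-1, CTSE was lower and CEACAM5 did not pass the test, beside 71.9% of all genes that were called in either direction (edgeR quasi-likelihood test, adjusted p under 0.05 by Benjamini-Hochberg, used for every read count below). The line cannot be told apart from the experiments in which it was grown and sequenced, and in bulk RNA fewer expressing cells and less RNA per cell cannot be told apart.

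LGALS4, a galactoside-binding lectin of the gut epithelium, had 66.4 to 170.1 CPM over the 15 AsPC-1 controls, and 0.240, 0.462, 0.20 and 0.298 CPM in the T3M-4 DMSO libraries. It was 415.9-fold higher in AsPC-1 (log2 difference 8.70 ± 0.25 SE, adjusted p = 1.0e-18). TSPAN8, a tetraspanin of the plasma membrane and of extracellular vesicles, was 398.2-fold higher (8.64 ± 0.32), and REG4, a secreted lectin of the regenerating-gene family, 320.1-fold higher (8.32 ± 0.43). None of these 3 genes overlapped between the lines, and of genes with a mean of at least 1 CPM 15.3% were higher in AsPC-1 without overlap. CEACAM6, a membrane-anchored adhesion protein, was 5.7-fold higher (2.51 ± 0.26, adjusted p = 7.0e-09). CEACAM5, the carcinoembryonic antigen, differed little between the lines (-0.05 ± 0.35, adjusted p = 0.90), with 3.22 to 9.42 CPM in AsPC-1 DMSO and 1.93 to 11.3 CPM in T3M-4 DMSO libraries.

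AGR2, a protein disulfide isomerase that helps mucins fold in the endoplasmic reticulum, was 1.91-fold higher in AsPC-1 (0.93 ± 0.37, adjusted p = 0.029), a call lost in 6 of 23 fits that left out 1 library (AsPC-1 DMSO 1.2 or NEG 3.2, or any experiment 2 library of T3M-4). The trefoil peptides, small secreted proteins that protect mucosal surfaces, were all higher in AsPC-1 but scarce in both lines. TFF1 had a median of 2.56 CPM in AsPC-1 DMSO libraries (1.44 ± 0.49, adjusted p = 0.012), TFF2 0.806 CPM (1.2 ± 0.29, adjusted p = 0.00073) and TFF3 0.364 CPM (5.57 ± 0.67, adjusted p = 8.1e-08). TFF3 had no T>C read in any of the 20 T3M-4 libraries. CTSE, an aspartic protease of the endosome, was at 0.0290 to 0.339 CPM in AsPC-1 DMSO libraries and at 0.291 to 0.662 CPM in those of T3M-4 (-1.36 ± 0.47, adjusted p = 0.012).

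**Figure D1:**
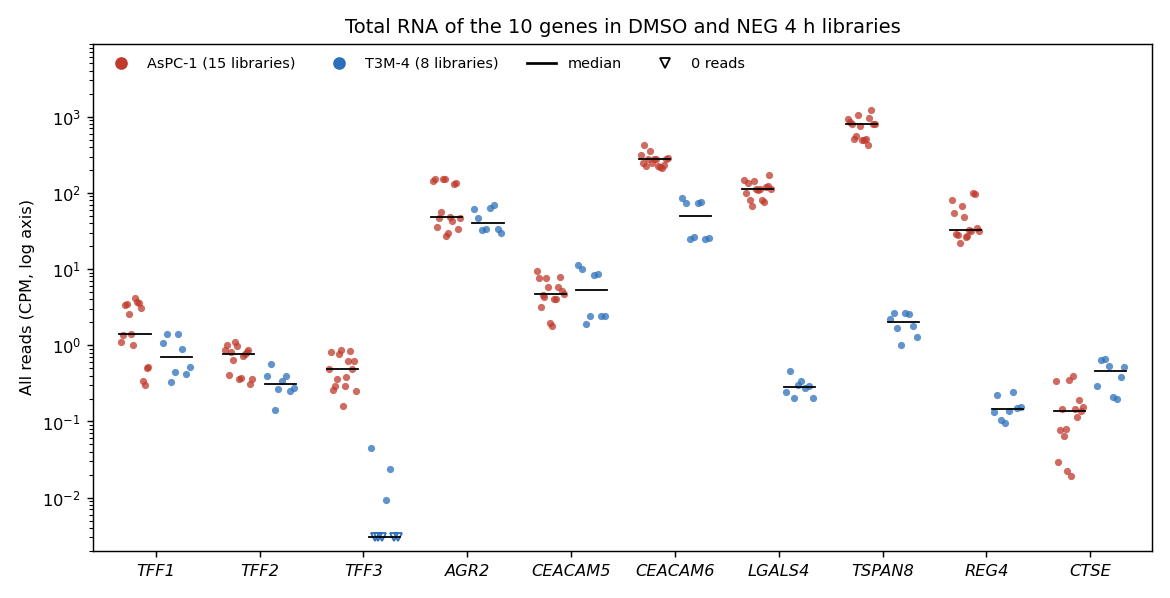
All reads (CPM, log axis) of the 10 genes in the 15 AsPC-1 and 8 T3M-4 control libraries (DMSO and NEG, 4 h). Points are libraries, bars are medians and open triangles are libraries with 0 reads; LGALS4, TSPAN8 and REG4 do not overlap between the lines, while CEACAM5 does.

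AsPC-1 libraries also differed among themselves across treatments. The 42 libraries were clustered on T>C reads of the 500 genes most variable within treatment groups, the 10 genes left out. Each group's mean was taken out first, so differences between treatments did not enter. The number of sets was preset at 3, which gave sets A (17 libraries), B (17) and C (8). Each set held as many dTAG as NEG libraries (4, 4 and 2). AGR2 total RNA was 115 to 227 CPM in set A, 26.6 to 58.7 CPM in set B and 43.0 to 55.5 CPM in set C, so set A did not overlap with the other sets. How many of all genes split the sets likewise was not counted. Genes that vary along with the 500 clustered genes are split by the way the sets were made, so this is no result about AGR2 alone. REG4 had medians of 86.0, 29.3 and 31.0 CPM in sets A, B and C, and CEACAM5 medians of 7.61, 4.10 and 4.06 CPM. TFF1 went the other way, at 0.322, 0.753 and 3.49 CPM. LGALS4 was at 127, 133 and 78.9 CPM, and CEACAM6 at 257, 300 and 219 CPM. These are descriptions of libraries, with no test. Set C was the same as the 8 libraries of experiment 2 in batch 1 of the labels. Its values therefore cannot be told apart from those of that experiment. Among dTAG and NEG libraries, set A held numbers 1.1, 1.2, 3.1 and 3.2, and set B held 1.3, 1.4, 3.3 and 3.4. Beyond the library numbers, what separates sets A and B is not given in the labels. T3M-4 libraries differed by experiment in the same manner: median CEACAM6 total RNA was 73.3 CPM in experiment 1 and 25.4 CPM in experiment 2, and CEACAM5 was at 10.2 and 2.39 CPM.

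**Figure D2:**
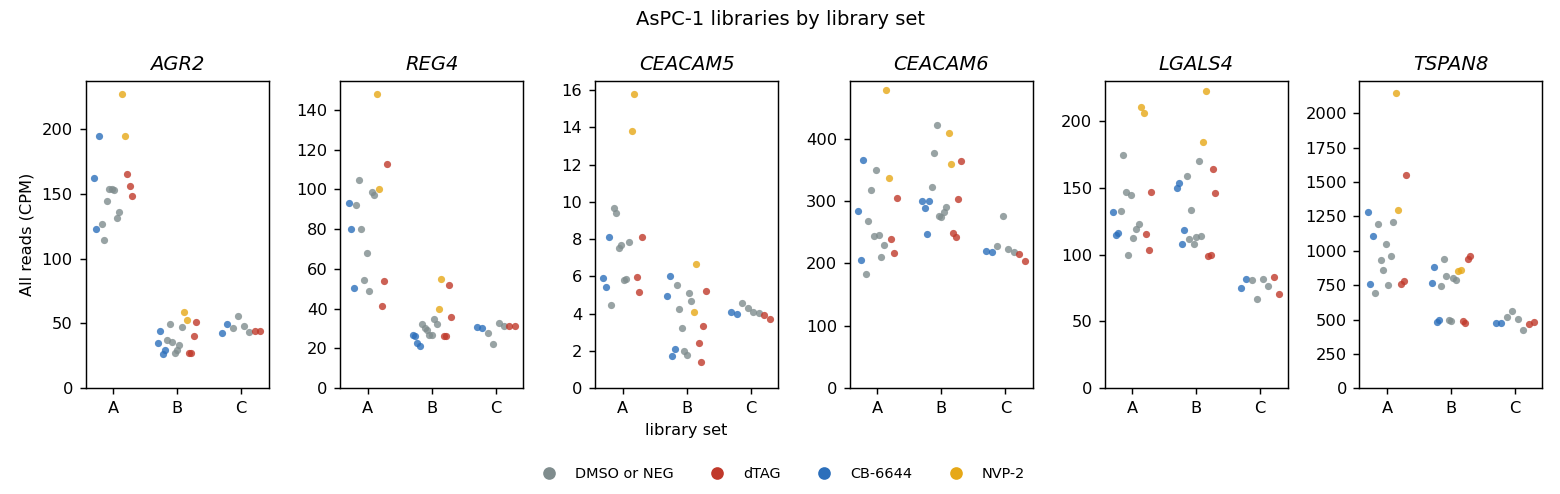
All reads (CPM, linear axes) of 6 genes in 41 AsPC-1 libraries, by library set A, B or C; colours give the treatment. For AGR2 all set A libraries lie above those of sets B and C, while CEACAM6 overlaps across the sets. How many of all genes split the sets likewise was not counted, and the sets were made from other genes of these same libraries.

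Under control conditions, the members tested had labelled shares below that of the median gene, except CTSE in T3M-4 NEG libraries (18.4% against 17.6%). In AsPC-1 DMSO libraries (4 h) the median gene had a labelled share of 15.3%. The share of CEACAM6 was 7.32% (median of 5 libraries), and 19.3% of genes were lower. CEACAM5 stood at 5.37%, TSPAN8 at 3.58%, REG4 at 3.46%, AGR2 at 3.36% and LGALS4 at 2.83%, with between 4.4% and 12.1% of genes below them. TFF1, at 11.2%, lay nearer the middle, but rested on 7 to 40 T>C reads per library. In T3M-4 DMSO libraries the median gene had 17.4%, CEACAM5 8.07%, CEACAM6 7.95% and AGR2 5.53%. Most reads of these genes thus carried no detected conversion. The counted 3′ untranslated stretches differ between genes in length and in the number of T bases that can convert. Shares were not corrected for this, so their ranks among genes are not ranks of turnover.

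**Figure D3:**
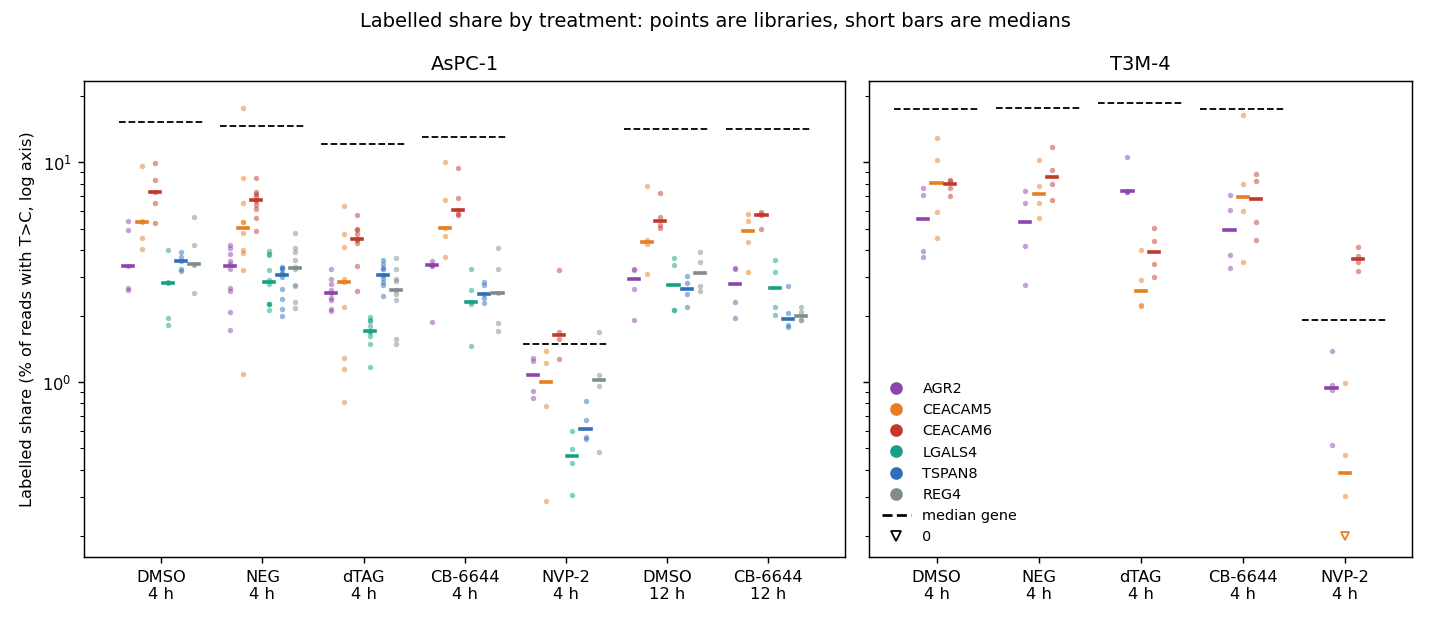
Labelled share (percent of reads with a T>C conversion, log axis) of 6 genes in AsPC-1 and of the 3 well-covered genes in T3M-4, by treatment. Points are libraries, short bars are medians, dashed lines are the median gene and the open triangle is a library at 0; the gene medians lie under the dashed line except CEACAM6 after NVP-2.

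Treatment with dTAG for 4 h addressed whether newly made RNA of these markers depends on KLF5. In AsPC-1, 6 of the 10 genes had enough T>C reads to be tested against NEG and none was called, beside 2.4% of all genes. Of the 11696 genes tested 281 were called, 54 higher and 227 lower, and 1413 had an unadjusted p under 0.05; DESeq2 also called none of the 10. Values were below 0 for 5 of the 6, with a member median of -0.29 against 0.03 for all genes. TFF1, TFF2, TFF3 and CTSE did not pass the filter on low counts; TFF2 had at most 2 T>C reads in any dTAG library and at most 9 in any NEG library.

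CEACAM6 had 84.7, 131 and 206 T>C CPM (lowest, median, highest of 10) after dTAG and 134, 166 and 300 after NEG. The groups overlapped, and the highest NEG value came from library 1.1. The log2 difference was -0.44 ± 0.15 (p = 0.0083 before and 0.17 after adjustment with edgeR). Within experiments 1, 2 and 3 the difference in log2(CPM + 1) was -0.66, -0.10 and -0.41. It was also negative in batch 1 (-0.51) and in batch 2 (-0.35), the batches being those named in the labels.

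LGALS4 had 12.46, 23.2 and 41.1 T>C CPM after dTAG and 18.3, 37.6 and 48.5 after NEG, a log2 difference of -0.46 ± 0.22 (adjusted p = 0.39). Within experiments the difference was -0.70, -0.35 and -0.33, so all 3 went the same way. TSPAN8 went the opposite way, with 131, 312 and 618 CPM after dTAG against 116, 197 and 398 after NEG (0.44 ± 0.26, adjusted p = 0.57). Its highest value was dTAG library 3.2.

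The dTAG and NEG libraries with the same number deviated together from their group means. By full number, 5 of the 10 dTAG libraries correlated best with the NEG library of their own number. With the experiment as a block, LGALS4 fell (-0.48 ± 0.11, adjusted p = 0.012), beside 3.82% of genes called. With the library set added to the block, LGALS4 fell (adjusted p = 0.0057) and TSPAN8 rose (0.44 ± 0.11, adjusted p = 0.020), beside 6.85% of genes. Set C is experiment 2 in these groups, so the set adds only the split between sets A and B to the block. With the full replicate number as the block, LGALS4 (adjusted p = 0.014) and CEACAM6 (-0.44, adjusted p = 0.021) fell and TSPAN8 rose (0.43, adjusted p = 0.011), beside 7.41% of genes. For T>C counts scaled by T>C reads, the calls in AsPC-1 therefore rest on whether the libraries are paired.

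CEACAM5 had 0.205, 1.61 and 3.63 T>C CPM after dTAG and 0.192, 2.92 and 4.198 after NEG (-0.64 ± 0.45, adjusted p = 0.68), on 2 to 69 reads per library. AGR2 was at 6.63, 16.3 and 52.1 CPM against 5.61, 18.1 and 65.3 (-0.03 ± 0.48, adjusted p = 1.0). REG4 was at 4.61, 12.6 and 34.7 CPM against 5.61, 11.3 and 47.0 (-0.14 ± 0.39, adjusted p = 0.95). Both groups spread more than 5-fold for each of these 3 genes.

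**Figure D4:**
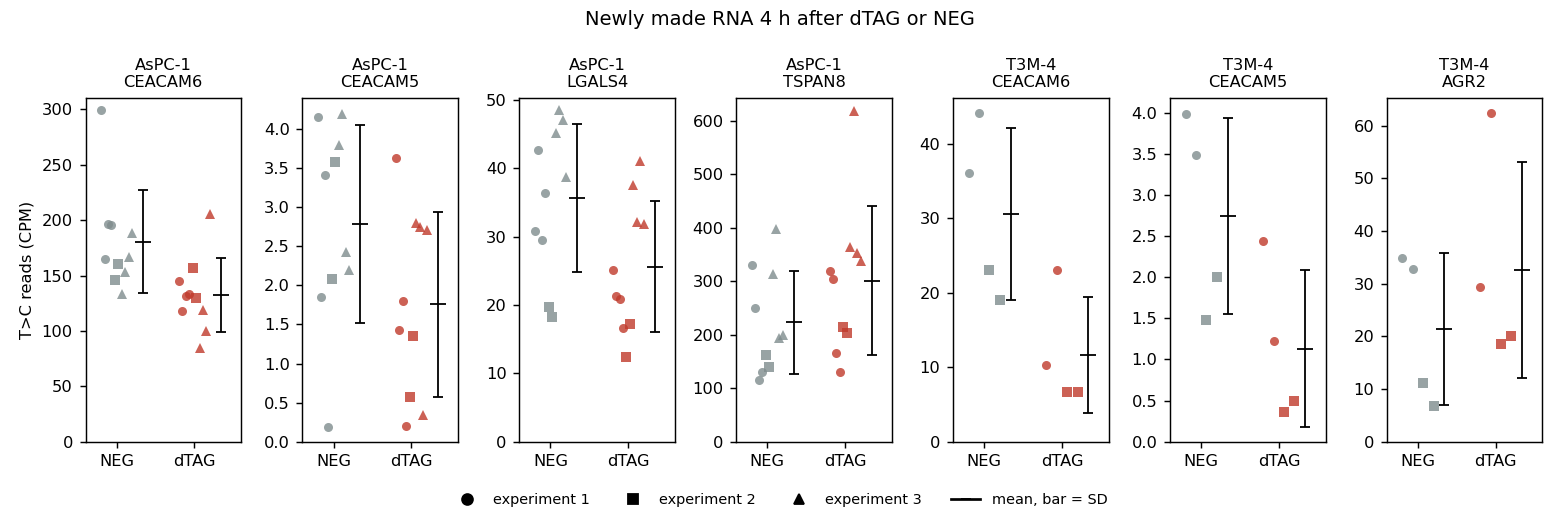
T>C reads (CPM, linear axes from 0) of 4 genes in AsPC-1 and 3 in T3M-4 after NEG or dTAG for 4 h. Each point is a library, its shape gives the experiment, and the bar beside the points is the mean with its SD. The groups overlap in all 7 panels. In T3M-4 both dTAG libraries of each experiment lie below both NEG libraries of the same experiment for CEACAM6 and CEACAM5. The share of all genes with this order was not counted.

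Total RNA of the 10 genes in AsPC-1 showed no call after dTAG, beside 0.797% of all genes, and no member had an unadjusted p under 0.05. Log2 differences ran from -0.29 (TFF3) to 0.99 (CTSE), with -0.01 ± 0.12 for CEACAM6 and -0.04 ± 0.17 for LGALS4. DESeq2 called none either.

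The labelled share, tested as log2 odds with limma, fell for many genes in AsPC-1: 4695 of 11818 genes were called, 39.7% in each case being called at all and called lower, and the median gene shifted by -0.33. Among the members 2 of 8 tested fell, a share below that of all genes. LGALS4 had a share of 1.18 to 1.97% in 9 dTAG libraries and 2.12 to 3.95% in 10 NEG libraries, with no overlap, as for 1.6% of all genes. Its log2 odds fell by 0.79 ± 0.16 (adjusted p = 0.0019). CEACAM6 fell from a median of 6.73% to 4.50% (-0.65 ± 0.14, adjusted p = 0.0031). Without experiment 1 neither passed (CEACAM6 -0.61, adjusted p = 0.13; LGALS4 -0.74, adjusted p = 0.11).

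CEACAM5 (-1.02 ± 0.43, adjusted p = 0.065) and TFF2 (-1.16 ± 0.48, adjusted p = 0.060) had larger values with larger errors, and AGR2 (-0.26 ± 0.17) and REG4 (-0.37 ± 0.19) were near the median gene. With the full replicate number as block CEACAM5 was called as well (adjusted p = 0.023), beside 40.5% of genes. TSPAN8 was the member with a value above 0 (0.14 ± 0.13, adjusted p = 0.37), or 0.46 above the median gene. When T>C reads were scaled by all reads, which keeps the lower labelling of the dTAG libraries in the values, CEACAM6 (-0.65, adjusted p = 0.0087) and LGALS4 (-0.80, adjusted p = 0.025) fell, beside 10.1% of genes.

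In T3M-4 the member with the lowest unadjusted p was CEACAM6. Its T>C CPM were 36.1, 44.2, 23.1 and 19.1 in NEG libraries 1.1, 1.2, 2.1 and 2.2, and 10.3, 23.1, 6.72 and 6.67 in the dTAG libraries. Within each experiment both dTAG libraries were below both NEG libraries, while across experiments the groups overlapped, since dTAG library 1.2 was above NEG library 2.2. The share of all genes with this order within both experiments was not counted. The log2 difference was -1.39 ± 0.43, or 2.63-fold lower (p = 0.0085 before and 0.30 after adjustment), and none of the 4 members tested was called, beside 0.834% of all genes. There 957 genes had an unadjusted p under 0.05 in edgeR and DESeq2 called no member either (CEACAM6 adjusted p = 0.066). With the experiment as a block CEACAM6 fell (-1.46 ± 0.25, adjusted p = 0.011), beside 2.64% of genes, and with the full number as block likewise (-1.52, adjusted p = 0.0098), beside 2.22%.

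CEACAM5 in T3M-4 had 3.99, 3.49, 1.48 and 2.00 T>C CPM after NEG and 2.44, 1.22, 0.361 and 0.492 after dTAG (-1.28 ± 0.67, adjusted p = 0.82). AGR2 lay the other way, at 34.8, 32.8, 11.1 and 6.80 CPM after NEG and 29.4, 62.5, 18.5 and 20.1 after dTAG (0.60 ± 0.55, adjusted p = 1.0). Most of the AGR2 difference was in experiment 2 (1.06 in log2(CPM + 1), against 0.34 in experiment 1). TFF1 rested on 0 to 28 T>C reads per library, and its value carried a large error (-1.77 ± 1.32).

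Labelled shares in T3M-4 separated the groups for both CEACAM genes. CEACAM6 had 6.74, 7.95, 11.7 and 9.20% after NEG and 2.998, 5.04, 4.40 and 3.45% after dTAG, all 4 below all 4. CEACAM5 had 6.55, 5.58, 7.84 and 10.3% after NEG and 3.98, 2.25, 2.23 and 2.93% after dTAG, again without overlap. Of all genes 2.14% were lower in all 4 dTAG libraries in the same way. The log2 odds differed by -1.24 ± 0.27 (p = 0.0019 before and 0.27 after adjustment) and -1.46 ± 0.30 (p = 0.0014 and 0.25), so neither of them, nor any of the other 6 tested, was called, and 0.00756% of all genes were. The median gene moved by 0.08. CEACAM6 went from above 19.4% of genes in NEG to above 4.3% in dTAG libraries, and CEACAM5 from 14.4% to 2.3%. AGR2 shares were 7.43, 6.52, 4.17 and 2.78% after NEG and 7.37, 10.6, 7.38 and 7.36% after dTAG (0.77 ± 0.35, adjusted p = 0.75). Total RNA of 9 members showed no call in T3M-4, beside 0.0191% of genes, with no unadjusted p under 0.05.

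A difference of the dTAG effect between both lines was tested directly for 7 members, and none was called, beside 0.0426% of genes. CEACAM6 differed by -0.92 ± 0.39 on the log2 scale (p = 0.025 before and 0.80 after adjustment), the value being lower in T3M-4, and CEACAM5 by -0.61 ± 0.85. LGALS4 had an unadjusted p of 0.011 (adjusted p = 0.69) but only 1 of the 4 T3M-4 NEG libraries held T>C reads of it (3 reads). DESeq2 called none of the 7.

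CB-6644 was used to ask whether RUVBL1/2 activity bears on genes that KLF5 acts on. In AsPC-1 at 4 h none of 7 members was called for T>C reads, beside 0% of all genes (0 of 11649 with edgeR, 482 at an unadjusted p under 0.05, 1 with DESeq2). All 7 values were below 0, from -0.72 ± 0.55 (REG4) to -0.03 ± 0.36 (LGALS4). CEACAM6 had 412, 168, 230, 153 and 141 T>C CPM after CB-6644 and 257, 165, 391, 134 and 196 after DMSO, in libraries 1.1, 1.2, 1.3, 2.1 and 2.2, so the groups overlapped fully. Library 1.2 belonged to set B after CB-6644 and to set A after DMSO, and AGR2 there was at 5.81 against 47.6 T>C CPM. With the experiment as block and the library set in the fit, the member median went from -0.36 to -0.06, AGR2 from -0.35 to -0.03 ± 0.26 and REG4 from -0.72 to -0.23 ± 0.23, and 6 of the 7 values were below 0 (LGALS4 0.04 ± 0.22).

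Total RNA gave no call among 10 members (0% of genes with edgeR, 267 at an unadjusted p under 0.05, 6 with DESeq2). For the labelled share 0.0338% of genes and no member of 8 were called. TSPAN8 shares were 2.87, 2.30, 2.41, 2.53 and 2.77% after CB-6644 and 3.89, 3.70, 3.26, 3.22 and 3.58% after DMSO. All 5 treated libraries were thus lower, as for 7.4% of genes, by 0.47 ± 0.16 in log2 odds (p = 0.016 before and 0.15 after adjustment), while the median gene moved by -0.27.

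At 12 h in AsPC-1 the picture was alike: no call among 6 members for T>C reads (0% of genes, 473 at an unadjusted p under 0.05, 26 with DESeq2), none among 10 for total RNA (0%, 325 and 18), and none among 9 for the labelled share (0.00808% of genes). REG4 shares were 2.19, 2.08, 1.92 and 1.92% after CB-6644 and 2.599, 3.92, 2.74 and 3.51% after DMSO. The 4 treated libraries were below the 4 controls, as for 2.01% of genes (-0.65 ± 0.23, p = 0.021 before and 1.0 after adjustment). TSPAN8 shares overlapped at 12 h, at 2.07, 2.73, 1.79 and 1.83% against 2.82, 3.05, 2.202 and 2.51%.

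In T3M-4 CB-6644 gave no call among 4 members for T>C reads (0% of genes with edgeR, 569 at an unadjusted p under 0.05, 7 with DESeq2), none among 9 for total RNA (0.0127%) and none among 8 for the labelled share (0% with limma, 363 at an unadjusted p under 0.05). CEACAM6 T>C CPM were 24.4, 14.3, 18.7 and 18.1 after CB-6644 and 48.2, 36.6, 18.3 and 18.0 after DMSO. Both experiment 1 libraries were lower and those of experiment 2 were not (-0.68 ± 0.34, adjusted p = 0.99).

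NVP-2 served as a comparison with general loss of transcription elongation. It cut the labelled share of nearly all genes, so that the median gene went to 1.49% in AsPC-1 (15.3% with DMSO) and to 1.91% in T3M-4 (17.4% with DMSO). T>C CPM after NVP-2 are therefore scaled to a much smaller pool of new RNA, and a gene can be higher in CPM while its labelled share falls. In AsPC-1 the 4 NVP-2 libraries were in batch 2 and their DMSO controls in batch 1, so batch and treatment cannot be told apart in that comparison. NVP-2 and CB-6644 share their DMSO controls.

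In AsPC-1, 5 of 7 tested members rose in T>C CPM, beside 12.9% of all genes called higher (30.5% in either direction). CEACAM6 had 978, 463, 512 and 427 CPM after NVP-2 against 134 to 391 after DMSO, with no overlap (1.45 ± 0.35, adjusted p = 0.0086). LGALS4 had 80.2, 71.2, 45.0 and 102 CPM against 13.2 to 40.3 (1.45 ± 0.37, adjusted p = 0.013). TSPAN8 had 1121.6, 703, 374 and 448 CPM against 184 to 353 (1.42 ± 0.33, adjusted p = 0.0069). All NVP-2 libraries lay above all DMSO libraries for these 3 genes, as for 4.12% of genes with a mean of at least 1 CPM.

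REG4 also rose (2.2 ± 0.62, adjusted p = 0.020), with 160, 87.6, 30.5 and 24.6 CPM against 6.94 to 32.7, and so did AGR2 (1.70 ± 0.57, adjusted p = 0.041), with 180, 134, 60.5 and 44.8 CPM against 13.8 to 76.0. Both overlapped with DMSO, and both were lost when single libraries were left out, AGR2 in 6 of 9 cases (DMSO 1.2, 1.3, 2.1 or 2.2, or NVP-2 1.1 or 1.2; log2 values of 1.29 to 2.26 over the 9 fits, adjusted p up to 0.13) and REG4 without NVP-2 library 1.1 (1.51, adjusted p = 0.082). CEACAM5 (1.24 ± 0.73, adjusted p = 0.22) did not pass. TFF1 had T>C reads in 1 of 4 NVP-2 libraries (2.98 CPM in library 1.1) and was at 0 in the others (adjusted p = 0.34).

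With controls from the same batch as the NVP-2 libraries the calls partly changed. Against NEG of experiment 3, AGR2 (1.99, adjusted p = 0.038), CEACAM6 (1.99, 0.0012), TSPAN8 (1.35, 0.023) and LGALS4 (0.83, 0.0497) were called higher and REG4 (1.66, 0.092) was not, beside 12.7% of genes. Against DMSO at 12 h AGR2 (2.1, adjusted p = 0.026), CEACAM6 (1.79, 0.0074) and TSPAN8 (1.46, 0.018) were called and LGALS4 (0.84, 0.11) and REG4 (1.87, 0.056) were not, beside 10.6%. AGR2, CEACAM6 and TSPAN8 were thus called with all 3 controls.

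Scaled by all reads, the same T>C counts gave values below 0. In AsPC-1 CEACAM6 (-1.52, adjusted p = 0.0044), LGALS4 (-1.60, 0.0032), TSPAN8 (-1.53, 0.0030), CEACAM5 (-1.77, 0.046) and TFF1 (0.0032, with 3 of 4 NVP-2 libraries at 0) fell, AGR2 (-1.26, 0.074) and REG4 (-0.72, 0.32) did not pass, and 92.6% of genes were called lower. The labelled share fell for 8 of 9 members, against 95.9% of genes called at all and 95.9% called lower, by 1.82 (AGR2) to 3.44 (TFF2, with 0 or 1 T>C reads after NVP-2) in log2 odds, and TFF3 (-0.85 ± 0.98) did not pass. The TFF1 call was lost without DMSO library 1.3 or NVP-2 library 2.1 or 2.2. The median gene fell by 3.42, so 8 of the 9 values were smaller falls than that of the median gene. In DMSO these members already had lower shares than the median gene (LGALS4 2.83% against 15.3%), and T>C reads without labelling were not measured. Whether the lower start accounts for the smaller falls was not tested. CEACAM6 shares were 3.23, 1.70, 1.57 and 1.28% after NVP-2, above those of 53.7% of genes at the median, against 19.3% in DMSO.

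**Figure D5:**
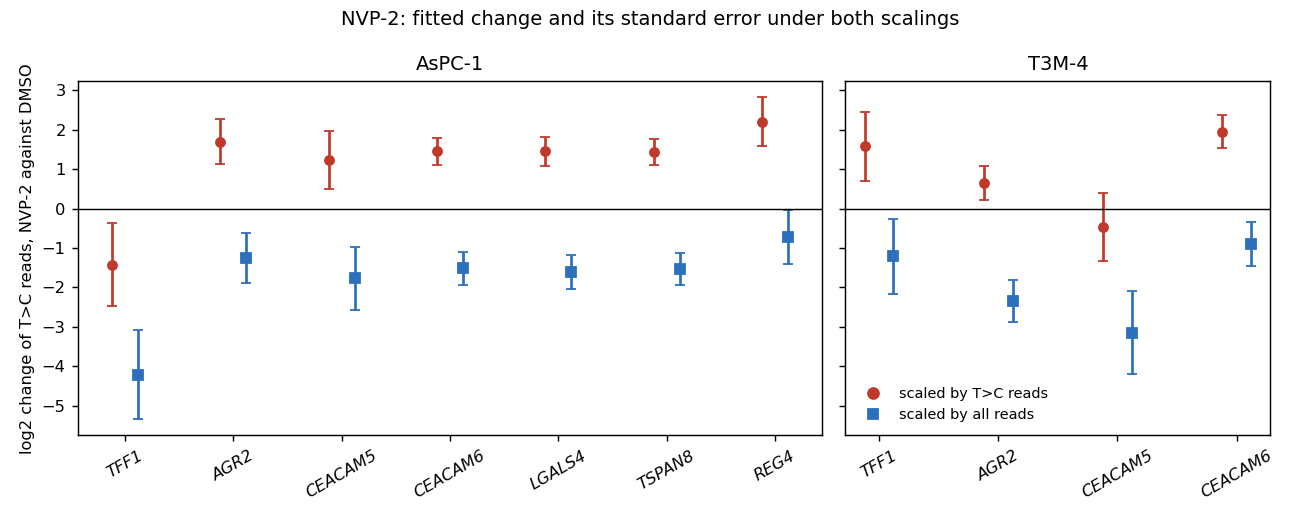
Fitted log2 change of T>C reads after NVP-2 against DMSO, with its standard error, for the tested genes of each line. Circles are values scaled by T>C reads and squares the same counts scaled by all reads; all squares lie below 0, while 6 of 7 circles in AsPC-1 and 3 of 4 in T3M-4 lie above it.

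Total RNA moved in both directions after NVP-2 in AsPC-1, with 2 of 10 members called beside 11.8% of genes. Of all genes, 484 were called higher and 1183 lower. CPM of total RNA are also relative to the pool of each library and no spike-in was used, so a rise need not mean more RNA per cell. TFF1 fell from 1.12 to 3.45 CPM in DMSO to 0.309, 0.155, 0.706 and 0.748 CPM (-2.29 ± 0.54, adjusted p = 0.021). TFF1 was also low in the batch 2 DMSO libraries at 12 h, at 0.224, 0.295, 0.753 and 0.456 CPM, which overlap with NVP-2. LGALS4 rose from 66.4 to 147 CPM in DMSO to 210, 206, 184 and 222 CPM (0.99 ± 0.23, adjusted p = 0.022), and those values were also above the 12 h DMSO libraries (112 to 174 CPM). The LGALS4 call was lost without DMSO library 1.2 or 2.1 or NVP-2 library 1.2 or 2.2 (adjusted p up to 0.064), and the TFF1 call without DMSO library 2.1 (0.051).

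In T3M-4 NVP-2 gave 1 call of 4 for T>C reads, beside 12.4% of genes called higher (26.7% in either direction). CEACAM6 had 175, 121, 76.9 and 78.7 CPM after NVP-2 against 48.2, 36.6, 18.3 and 18.0 after DMSO, and rose by 1.95 ± 0.43 (3.87-fold, adjusted p = 0.0077). The call held without any 1 library. AGR2 (0.65 ± 0.43), CEACAM5 (-0.47 ± 0.86) and TFF1 (1.58 ± 0.87) did not pass. TSPAN8 was under the filter on low counts, with 5.28, 1.38, 5.60 and 1.305 CPM after NVP-2 and 0.114 to 0.634 after DMSO. It was called in a fit without that filter (3.28, adjusted p = 0.033), for which the share of all genes called is not given. T3M-4 libraries held 3 to 24 T>C reads of TSPAN8 in experiment 1 and 0 to 15 in experiment 2, and its counts are nearly all multiples of 3.

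Scaled by all reads, AGR2 (-2.35, adjusted p = 0.0018) and CEACAM5 (-3.15, 0.016) fell in T3M-4 and CEACAM6 (-0.91, 0.14) did not pass, beside 86% of genes called lower. CEACAM6 shares were 3.74, 4.11, 3.21 and 3.54% after NVP-2 and 8.23, 7.04, 8.36 and 7.68% after DMSO. Labelled share fell for 4 of 8 members, beside 91.8% of genes called at all and 91.8% called lower: CEACAM6 by 1.17 ± 0.28, TFF2 by 2.54 ± 0.74 (at 0 T>C reads in 3 of 4 NVP-2 libraries), AGR2 by 2.64 ± 0.46 and CEACAM5 by 4.65 ± 0.85 in log2 odds, with -3.59 for the median gene. CEACAM6 thus had a smaller fall than the median gene and its neighbour CEACAM5 a larger one. Both started lower than the median gene in DMSO (7.95% and 8.07% against 17.4%), and T>C reads without labelling were not measured. CEACAM6 stood above 73.9% of genes after NVP-2 and CEACAM5 above 12.5% of them. No member of 9 was called for total RNA, beside 5.16% of genes; with the experiment as a block AGR2 rose (0.42, adjusted p = 0.037), beside 15.8%.

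NEG and DMSO, compared as controls, gave no call in either line, for 7 members in AsPC-1 (0% of genes with edgeR, 878 at an unadjusted p under 0.05, 22 with DESeq2) and 4 in T3M-4 (0%, 255 and 2). TSPAN8 in AsPC-1 had -0.46 ± 0.27 and CEACAM6 -0.23 ± 0.27, as large as some treatment values above.

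Other classical markers were counted beside the 10 genes. Of 67 such genes that the data held, 31 were tested for T>C reads after dTAG in AsPC-1 and 2 fell, GCNT3, a mucin-type glycan transferase (-1.35 ± 0.23, adjusted p = 0.0013), and TST, a mitochondrial sulfurtransferase (-0.73 ± 0.15, adjusted p = 0.0072). Of all genes 2.4% were called. The median of the 31 was -0.28, against 0.03 for all genes. For the labelled share 16 of 33 (48.5%) fell, beside 39.7% of all genes called lower, with a median of -0.60 against -0.33. In T3M-4 0 of 20 were called for T>C reads after dTAG with edgeR, beside 0.834% of all genes. After CB-6644 none was called in either line at either time. For T>C reads after NVP-2, 9 rose and 2 fell of 30 in AsPC-1, beside 12.9% of all genes called higher (30.5% in either direction). In T3M-4 3 of 19 rose, beside 12.4% of all genes called higher. In the control comparison 35 of 47 were higher in AsPC-1 and 5 lower, beside 71.9% of all genes called in either direction (5389 of 15523 higher in AsPC-1).

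Of 52 genes of the same families or functions as the 10, 37 were tested for T>C reads after dTAG in AsPC-1. Of these 3 fell, beside 2.4% of all genes called. They were CEACAM1 (-1.69 ± 0.20, adjusted p = 4.3e-05), which is a CEACAM with a cytoplasmic signalling tail, and the tetraspanins TSPAN14 (-0.54 ± 0.10, adjusted p = 0.0036) and CD9 (-0.89 ± 0.23, adjusted p = 0.040). In T3M-4, CD9 (-1.27 ± 0.21, adjusted p = 0.020) and TSPAN14 (adjusted p = 0.038) fell among 38 tested, beside 0.834% of all genes called. None rose in either line. After NVP-2, 16 rose and 1 fell of 36 in AsPC-1 and 12 rose of 36 in T3M-4. Of all genes 12.9% and 12.4% were called higher. The protease gene CTSB was higher in both lines (1.91 ± 0.19 and 2.19 ± 0.26). The lists were drawn up with earlier results of these data known and are described by counts only.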

How the data were processed

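Per the study's methods, single-end 100-base reads were mapped with slamdunk at its defaults (version not given in the sources used here) to GENCODE v44 3′ untranslated exons (hg38), and the authors deposited whole-number counts of T>C reads and all reads per gene, not normalized. No unlabelled library or spike-in was used here. The deposited all-read column of AsPC-1 dTAG library 3.1 was left out: it equals the T>C counts of DMSO 12 h library 2. Another 18 unnamed columns were empty.

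Counts were tested with edgeR 4.0.16 (filterByExpr, TMM, quasi-likelihood, R 4.3.3). The labelled share was tested with limma 3.58.1 on log2((T>C + 0.5)/(all - T>C + 0.5)) over genes with at least 20 reads in every library. All tests were two-sided and adjusted over all genes tested. DESeq2 1.42.0, other scalings, filters, controls and blocks were alternatives. The scripts were tested on simulated data. T>C totals of 2240998 to 27982537 per library limit precision for genes with few reads, and no UMIs were stated.

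The experiment number paired the groups in AsPC-1 dTAG and NEG (correlations of deviations 0.436, 0.672 and 0.490). By full number the correlations were also above 0 (10 pairs, 0.264 to 0.587, and in T3M-4 4 pairs, 0.316 to 0.573). However, 5 of 10 dTAG libraries in AsPC-1 correlated best with the NEG library of their own number, against 4 of 4 in T3M-4. Whether the full number pairs AsPC-1 libraries beyond their experiment and library set was not tested. Both pairings come from the data, since the labels give only the numbers. The members and lists were chosen with earlier results of these data known. All 10 members were named whatever their values, with KLF5, the lineage markers, up to 4 called genes per list and the 2 genes most alike to each member. The full classical marker list is not reported here.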

Additional observations from a re-analysis of the deposited data

Results flagged for a closer look

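In 203 groups of 4 to 10 libraries the gap of the highest or lowest library to its neighbour was compared with the group's range, and 16 groups (7.88%) had a library that stood apart at Dixon's limit. Chance alone marks about 1 group in 20.

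Several of the 16 came from library 1.1 of AsPC-1 CB-6644 at 4 h, which was the only one of its group in set A: AGR2 at 79.2 T>C CPM and 195 all-read CPM, TSPAN8 at 378.9 T>C CPM and 1110.6 all-read CPM, and TFF1, lowest, at 1.17 all-read CPM. In the same group library 1.2 had the lowest AGR2 labelled share, 1.88%. In AsPC-1 dTAG, library 3.2 was highest for TSPAN8 (617.8 T>C CPM and 1551.8 all-read CPM) and for REG4 (112.9 all-read CPM).

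CEACAM6 stood apart in NEG library 1.1 (299.6 T>C CPM), in NVP-2 library 1.1 (978.4 T>C CPM) and, lowest, in CB-6644 12 h library 2 (204.9 all-read CPM), all in AsPC-1. In T3M-4, dTAG library 1.2 was highest for the AGR2 labelled share (10.6%) and for LGALS4 (0.396 all-read CPM). REG4 in T3M-4 stood apart in CB-6644 library 2.1 (0.132 all-read CPM, lowest) and NVP-2 library 1.2 (0.191 all-read CPM, highest).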

How the results depend on the processing

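Of 359 alternative counts of members called, 334 stayed within the limit of the reported count and 25 in 8 results did not. Of 933 alternative values of single members 856 kept direction and side of the threshold, 33 lost the call, 19 gained it and 25 in 12 results changed sign. For T>C reads after dTAG in AsPC-1, the calls numbered 2 when scaled by all reads, 1 with the replicate block, 2 with block and library set and 3 with the block by full number; in T3M-4 there was 1 call with the replicate block, 1 by full number and 1 with libraries summed per experiment under the block. The AsPC-1 labelled share had 0 calls without experiment 1, and 3 with block and library set (REG4 gained, adjusted p = 0.0498 with limma) or by full number (CEACAM5 gained). The last 2 fits called 5479 and 4787 of 11818 genes. For NVP-2 in AsPC-1, T>C reads gave 3 calls against DMSO at 12 h, and total RNA 4 with the replicate block, although the numbers did not pair these libraries (correlation 0.004), and 0 to 2 when 1 library was left out. For total RNA the block fit called 1865 of 14095 genes and the fits without 1 library 837 to 2063. In T3M-4, NVP-2 T>C reads gave 2 calls each with DESeq2, when scaled by all reads, without a filter and in experiment 1 alone, and 1 to 2 when 1 library was left out. DESeq2 called 4648 of 14072 genes there, the fit scaled by all reads 10536 of 12242, and the fits without 1 library 2168 to 3693. T3M-4 total RNA after NVP-2 gave 1 call with the replicate block and 1 by full number, beside 2476 and 2626 of 15653 genes. The control comparison made on T>C reads gave 4 calls. For that fit the share of all genes called is not given, nor for fits without a filter, in or without a single experiment, or summed per experiment. The block changed no other count of members called, and the cause of these changes was not tested. Blocks by full number, and library set with the block for total RNA and labelled share, were chosen after seeing the data.

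Among the values counted above, those that changed sign were AGR2 after dTAG in AsPC-1 (0.036 with block and set, 0.059 by full number, 0.11 without experiment 1, 0.16 in batch 2 alone), the TFF1 share after dTAG without experiment 1 (0.27), AGR2 after NVP-2 in T3M-4 in experiment 1 alone (-0.19) and CEACAM5 between the lines (0.005 on T>C reads, and -0.208 to 0.119 when 1 library was left out, above 0 in 9 of 23 fits at 0.001, 0.006, 0.009, 0.021, 0.025, 0.056, 0.092, 0.104 and 0.119). Scaling NVP-2 T>C reads by all reads turned AGR2 (-1.26), CEACAM5 (-1.77), CEACAM6 (-1.52), LGALS4 (-1.60), TSPAN8 (-1.53) and REG4 (-0.72) in AsPC-1, and TFF1 (-1.21), AGR2 (-2.35) and CEACAM6 (-0.91) in T3M-4; that scale keeps the loss of labelled reads in the values. For CB-6644, NEG against DMSO and total RNA after dTAG, where no member was called, 167 of 1276 alternative values of single members lay on the other side of 0, and none of these was called. Depth limits TFF1, TFF2, TFF3 and CTSE in both lines and LGALS4, TSPAN8 and REG4 in T3M-4.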

Other observations

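Among 6661 genes with a mean of at least 10 CPM, the genes whose total RNA ran most alike with each member over 41 AsPC-1 libraries were looked up by Pearson correlation of log2 CPM. These libraries share treatments, experiments and library sets, and the values are descriptions. AGR2 ran most alike with TESC (0.955) and BBX (0.948), TFF1 with MT1E (0.918) and ARHGAP26 (0.859), and TFF2 with FRMD3 (0.914) and PCGF5 (0.888). TFF3 had FADS2 (0.858) and AHNAK2 (0.855), REG4 had CHPT1 (0.915) and LINC01091 (0.913), and CEACAM5 had ORAI2 (0.931) and DNASE2 (0.923). CEACAM6 ran with HSD17B11 (0.933) and COX6C (0.923), LGALS4 with RAMP1 (0.921) and RETREG2 (0.920), and TSPAN8 with CSTPP1 and CEBPZOS (0.927 each). CTSE had no close match (RAB11B 0.630, MLF2 0.623).

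No member was the closest match of another. AGR2 correlated at 0.850 with REG4 and at 0.810 with CEACAM5, but at 0.061 with CEACAM6. The neighbours CEACAM5 and CEACAM6 correlated at 0.298 over these AsPC-1 libraries and at 0.929 over 20 T3M-4 libraries. TFF1 and TSPAN8 correlated at -0.830 in AsPC-1 and at 0.703 in T3M-4.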
